A study of Mus musculus with 6 samples.

Results

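The genes described here encode the constitutive proteasome, the barrel-shaped protease that degrades proteins tagged with ubiquitin. They were chosen by symbol: Psma1 to Psma7, Psmb1 to Psmb7, Psmc1 to Psmc6 and all genes named Psmd with a number. The rule found 34 of the 18193 genes measured, 14 of the core particle and 20 of the regulatory cap, and each was read from 1 probe set, the brightest of those that name that gene alone. Messenger RNA was measured on 6 Affymetrix arrays in long-term haematopoietic stem cells (LT-HSC) sorted from mouse bone marrow, 3 from wildtype (Irf8+/+) and 3 from knockout (Irf8-/-) mice. The sort kept lineage-negative cells with Sca-1, c-kit and CD150 on their surface and without CD48. All samples are labelled 3 weeks and untreated, and the labels give no strain, no sex and no description of the knockout allele. Irf8 encodes a transcription factor of the interferon regulatory factor family that directs cells to the monocyte and dendritic lineages.

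The core particle is a stack of rings in which alpha subunits form the outer gate and beta subunits the inner chamber. The proteolytic sites lie in Psmb5, Psmb6 and Psmb7. The cap sits on the ends of the core: its base holds a ring of ATPases, encoded by Psmc genes, that unfolds substrates, and its lid removes the ubiquitin chain through Psmd14. Interferon induces Psmb8, Psmb9 and Psmb10, which replace Psmb5, Psmb6 and Psmb7 in newly made immunoproteasomes. When proteasome activity is short, the transcription factor encoded by Nfe2l1 raises transcription of proteasome genes through antioxidant response elements in their promoters.

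Values are log2 expression, so a difference of 1 is a doubling, and the table gives array medians between 4.85 and 4.96. A difference is the mean of the knockout arrays minus the mean of the wildtype arrays, with its standard error (SE) from limma. An adjusted p is Benjamini-Hochberg adjusted over all genes, with a threshold of 0.05. Irf8 read 5.52 ± 0.79 in wildtype and 5.93 ± 0.89 in knockout (SD, n = 3 each; adjusted p = 0.92 in limma), so its signal does not separate the arrays as labelled; the labels do not say whether its probes lie in the deleted part. The mean of Irf8 over the 6 arrays lay under the median gene level of 5.81, so its signal was low in both genotypes. Of 10 measured stem cell markers 9 lay above that level, as did all 34 proteasome genes. Of 11 measured neutrophil markers 10 did so too, and their mean level ran from 6.65 to 7.85 in wildtype and was 8.88, 8.74 and 11.32 in knockout replicates 1, 2 and 3. All 6 megakaryocyte markers also lay above that level, with a median difference of 0.17, as did 2 of 6 erythroid markers. Of the erythroid markers 4 were lower and 2 higher in knockout. Klf1 differed by -2.21 without overlap between groups (SE 0.81, adjusted p = 0.887 in limma). Without overlap were also 4 of 11 neutrophil markers, all higher (against 6.67% of all genes). Among stem cell markers this held for 1 of 10, Procr, lower by a difference of -0.75 (against 4.25% of all genes). Monocyte markers (0 of 7) and B and T cell markers (1 of 6, Cd79b) mostly lay under it. In sorted populations, fewer cells of a type and less RNA per cell cannot be told apart.

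Promoter letters are shown because proteasome genes are known to share control elements there. The last 100 bases before the gene start were taken from RefSeq sequences of build GRCm38.p6 and are written 5′ to 3′ on the strand of the gene. Capitals mark a match on either strand to TGACNNNGC, the core of the antioxidant response element, in Psmb5, Psmb6 and Psmd9, and to CCGGAA, the core bound by ETS family factors, in Psmc5, Psmd2, Psmd6 and Psmd12. Psma7, the gene with the smallest unadjusted p, has neither in this stretch.

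Psmb5: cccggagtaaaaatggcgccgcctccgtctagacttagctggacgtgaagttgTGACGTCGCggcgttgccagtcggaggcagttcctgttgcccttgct
Psmb6: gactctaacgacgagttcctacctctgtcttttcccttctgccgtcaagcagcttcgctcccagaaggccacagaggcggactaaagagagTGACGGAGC
Psmd9: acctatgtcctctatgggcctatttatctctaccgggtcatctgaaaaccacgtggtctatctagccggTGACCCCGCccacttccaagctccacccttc
Psmc5: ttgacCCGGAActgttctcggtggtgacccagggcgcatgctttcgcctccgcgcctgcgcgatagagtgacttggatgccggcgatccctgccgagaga
Psmd2: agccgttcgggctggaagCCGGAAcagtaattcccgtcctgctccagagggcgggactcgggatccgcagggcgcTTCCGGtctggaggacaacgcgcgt
Psmd6: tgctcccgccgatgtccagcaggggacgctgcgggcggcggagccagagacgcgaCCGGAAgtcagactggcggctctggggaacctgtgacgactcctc
Psmd12: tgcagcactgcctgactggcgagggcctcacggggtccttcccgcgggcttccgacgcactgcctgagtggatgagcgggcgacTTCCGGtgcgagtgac
Psma7: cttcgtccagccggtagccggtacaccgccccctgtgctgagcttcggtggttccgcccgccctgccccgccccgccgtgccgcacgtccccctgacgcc

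These stretches lie at chr14:54617996-54618095 (minus strand) for Psmb5, chr11:70525257-70525356 (plus strand) for Psmb6 and chr5:123228090-123228189 (plus strand) for Psmd9. Those of the other genes lie at chr11:106256085-106256184 (plus strand) for Psmc5, chr16:20651552-20651651 (plus strand) for Psmd2, chr14:14120946-14121045 (minus strand) for Psmd6, chr11:107479428-107479527 (plus strand) for Psmd12 and chr2:180042465-180042564 (minus strand) for Psma7. The match began 47 bases before the start of Psmb5, 9 before that of Psmb6 and 31 before that of Psmd9. Windows of 300 bases, 250 before to 50 after the start, were at hand for 28 of the 34 genes (30 windows); Psmb1, Psmb2, Psmb7, Psmc3, Psmd3 and Psmd7 had none. CCGGAA stood in 16 of these 30 windows (53.3%), against 14.9% of all 32851 windows and 28.4% of the 9540 windows of genes above the median level on these arrays. TGACNNNGC stood in 5 windows (16.7%), against 12.4% of all and 14.5% of those of genes above the median level, and CCAAT, searched the same way, in 36.7% against 37.4% and 37.1%. The motifs were searched on both strands, none contains another, and a match is a description of letters, not a binding site. The median difference in expression was -0.28 over the 15 genes with CCGGAA and -0.14 over the 13 without. The 5 genes with TGACNNNGC went in different directions, with differences of -0.50 for Psmb5, -1.23 for Psmb6, -0.43 for Psmd12, -0.13 for Psmc6 and 1.05 for Psmd9.

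The comparison of knockout with wildtype asks which of these genes depend on the Irf8 genotype, and no proteasome gene passed the threshold. In limma 0 of 34 members passed after adjustment over all genes, where 0.0% of all genes were called, and the smallest adjusted p among members was 0.887. At an unadjusted p under 0.05 there was 1 lower member, Psma7, and 0 higher, against 2.44% of all genes lower and 2.4% higher. Members leaned to lower values in knockout: 22 of 34 differences lay below 0 (64.7%), against 43.4% over all genes and 52.9% over genes above the median level. Of the core differences 8 of 14 lay below 0 (57.1%), and of the cap differences 14 of 20 (70.0%). The median difference was -0.31 for the core and -0.26 for the cap, against 0.07 over all genes and -0.05 over genes above the median level. The SD of array medians within a genotype was 0.10 for the core and 0.47 for the cap, so the cap median lay within the spread between arrays. For the core this SD is that of medians over genes that went in both directions, so it is no yardstick for the core median. The median SD of a single core gene was 0.66 over the knockout arrays, and the median SE of a single member was 0.58. Neither median was tested.

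**Figure D1:**
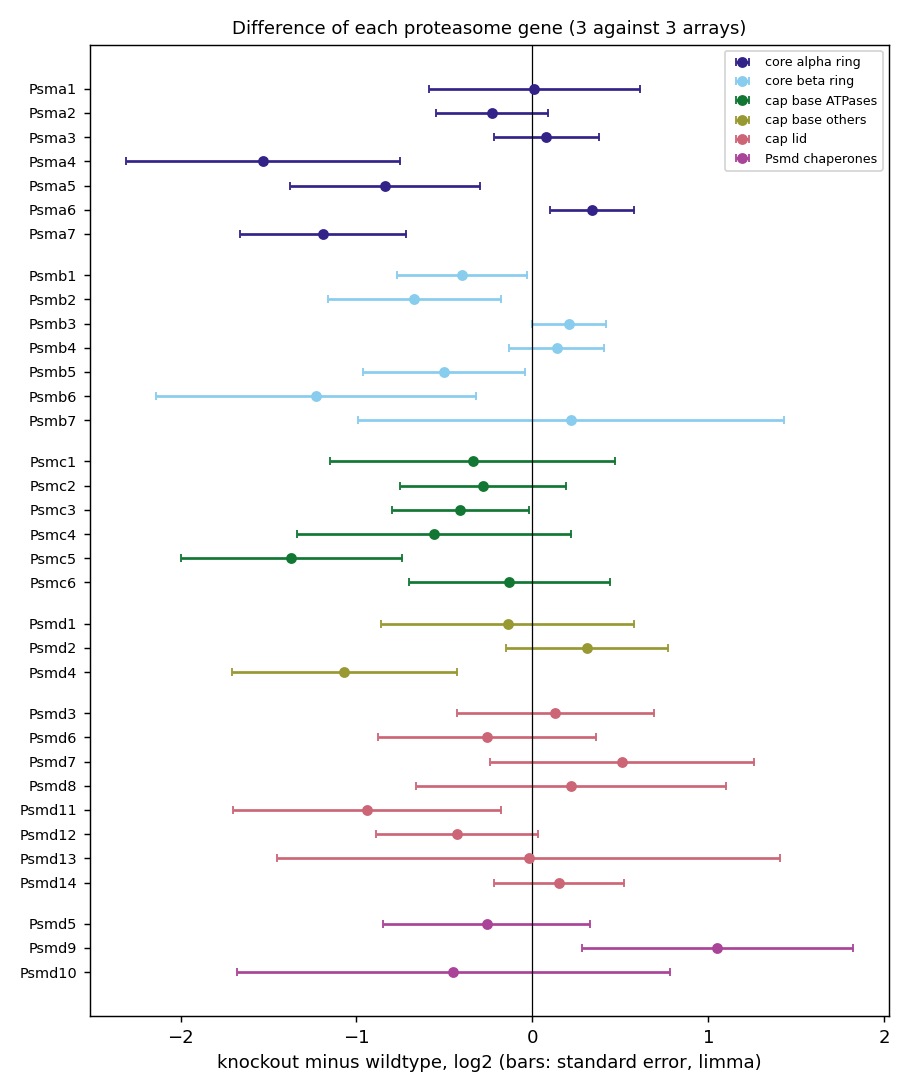
Knockout minus wildtype difference of each of the 34 proteasome genes on the log2 scale (horizontal axis), with bars for the standard error from limma, grouped by place in the complex. Differences run from -1.53 for Psma4 to 1.05 for Psmd9, and 22 of 34 lie below 0.

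Groups without overlap, with each knockout array below each wildtype array, were found for 2 members, both ATPases of the cap base, Psmc3 and Psmc5 (5.88% of members, against 4.25% of all genes and 6.3% of genes above the median level). The opposite pattern was found for 0 members, against 6.67% of all genes and 4.89% of genes above the median level. The share of members lower without overlap is thus near that of genes at large.

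In the alpha ring 4 genes were lower and 3 higher in knockout, with a median of -0.23. Psma7, an alpha subunit, read 11.27, 10.69 and 11.27 in wildtype replicates 1, 2 and 3 and 10.79, 9.72 and 9.15 in the knockout replicates. Knockout replicates 2 and 3 lay under all wildtype arrays, and knockout replicate 1 lay among them. The difference was -1.19 (SE 0.47, adjusted p = 0.887 in limma), and without knockout replicate 3 it was -0.82. A second probe set of Psma7 gave nearly the same picture, 11.19, 10.71 and 11.24 in wildtype and 10.84, 9.99 and 8.89 in knockout, a difference of -1.14.

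Psma4, another alpha subunit, had the lowest difference of all members, -1.53 (SE 0.78, adjusted p = 0.887 in limma). It read 9.28, 10.42 and 9.53 in wildtype and 7.94, 9.74 and 6.98 in knockout, so knockout replicate 2 lay among the wildtype arrays and the others below. Without knockout replicate 3 the difference was -0.91 and without knockout replicate 2 it was -2.29. Psma5 differed by -0.84 through knockout replicates 2 and 3, at 8.78 and 8.62 against 9.74 to 10.34 in wildtype. Its second probe set differed by -0.12, with 9.04 and 9.54 in those arrays against 9.11 to 10.09. Psma1, Psma2, Psma3 and Psma6 differed by between -0.23 and 0.34.

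In the beta ring the 3 catalytic subunits behaved differently from array to array, and none separated the genotypes. Psmb5, which carries the chymotrypsin-like site, read 9.35, 9.57 and 8.91 in wildtype and 8.80, 8.35 and 9.18 in knockout, a difference of -0.50 (SE 0.46), or -0.28 without knockout replicate 2. Psmb6, which carries the caspase-like site, read 10.69, 10.90 and 10.51 in wildtype and 7.27, 10.26 and 10.88 in knockout. Its difference of -1.23 (SE 0.91) came from knockout replicate 1 and was -0.13 without it. Psmb7, which carries the trypsin-like site, was at its highest in that same array: it read 11.22, 6.92 and 7.75 in knockout and 7.10, 9.22 and 8.90 in wildtype. Its difference was 0.22 (SE 1.21) and turned to -1.07 without knockout replicate 1 and -0.43 without wildtype replicate 1. The adjusted p in limma was 0.887 for Psmb5 and Psmb6 and 0.983 for Psmb7, and each of the 3 has 1 probe set.

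Among structural beta subunits, Psmb2 read 11.81, 11.58 and 10.66 in wildtype and 9.85, 11.46 and 10.73 in knockout. Its groups overlapped, and the difference was -0.67 (SE 0.49), or -0.25 without knockout replicate 1. Psmb1 differed by -0.40, Psmb3 by 0.21 and Psmb4 by 0.14. Their SEs ran from 0.21 to 0.37. The groups of Psmb1 overlapped in the probe set used. Its other probe sets were lower in knockout without overlap, by -0.43 and -0.71. Those probe sets were dim, with mean levels of 5.90 and 5.78.

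**Figure D2:**
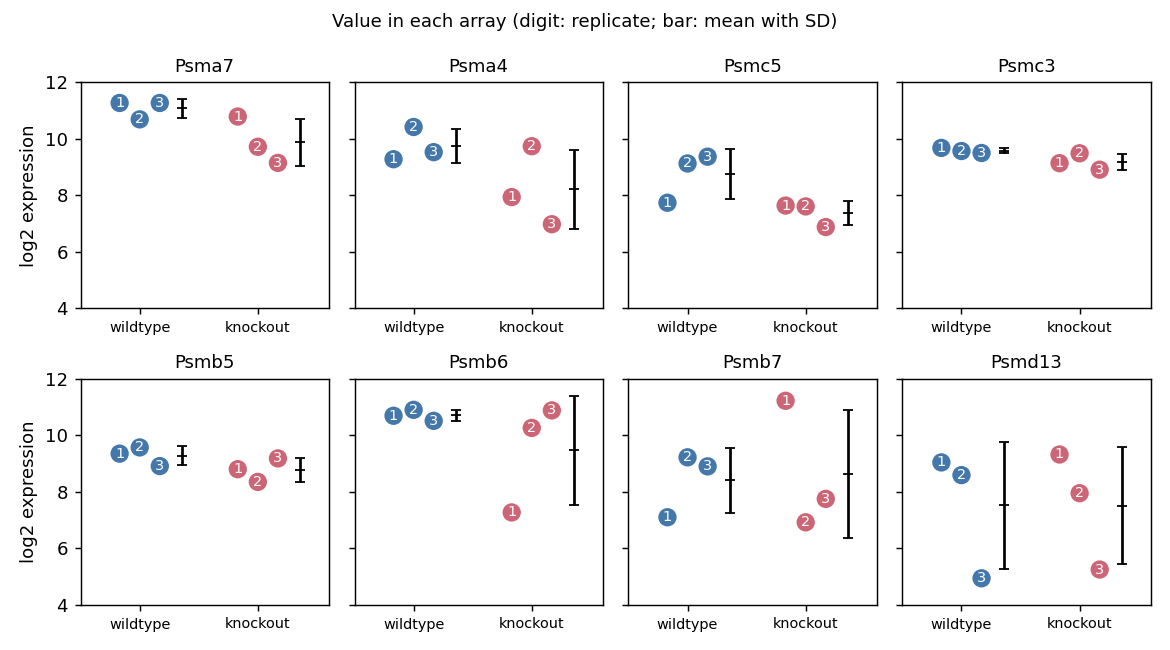
Log2 expression (vertical axis) of 8 proteasome genes in each array, with the replicate number inside each point and the mean with SD beside each group. Knockout replicate 1 holds the lowest Psmb6 value (7.27) and the highest Psmb7 value (11.22), and the third replicate of each genotype holds the lowest Psmd13 value of its group.

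The ATPase ring of the cap base was lower in knockout in all 6 genes, by between -1.37 and -0.13, with a median of -0.38 and 0 members past the threshold. Psmc5 read 7.74, 9.13 and 9.37 in wildtype and 7.64, 7.61 and 6.88 in knockout. The groups did not overlap, but wildtype replicate 1 lay only just above the knockout arrays, and the difference was -1.37 (SE 0.63, adjusted p = 0.887 in limma). Psmc3 read 9.68, 9.57 and 9.50 in wildtype and 9.14, 9.49 and 8.91 in knockout. Its groups were nearly in contact and did overlap after quantile normalization, with a difference of -0.41 (SE 0.39), or -0.27 without knockout replicate 3. Psmc4 differed by -0.56 through knockout replicate 3 alone, at 8.11 against 10.03 to 11.01 in the other arrays, and its second probe set showed the same, at 8.03 against 9.52 to 10.59. Psmc2 differed by -0.28 in its brightest probe set, of a type open to cross-hybridisation, and by 1.30 without overlap in the opposite direction in its second.

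Among the other base subunits, Psmd4, a ubiquitin receptor, read 9.61, 8.09 and 9.52 in wildtype and 7.40, 8.72 and 7.89 in knockout. The groups overlapped; the difference was -1.07 (SE 0.64), while another of its probe sets above the median level gave 0.56. Psmd2, a scaffold of the base, read 9.29, 9.18 and 9.11 in wildtype and 10.19, 8.98 and 9.34 in knockout, a difference of 0.31 (SE 0.46) that was -0.04 without knockout replicate 1. Psmd1, the other scaffold, differed by -0.14 (SE 0.72).

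In the lid 4 genes were lower and 4 higher, with a median of 0.06. Psmd11, a lid scaffold subunit, read 9.67, 9.78 and 11.99 in wildtype and 8.55, 10.03 and 10.05 in knockout. Its difference of -0.94 (SE 0.76) was -0.19 without wildtype replicate 3, and its 6 probe sets above the median level gave between -1.20 and 1.45. Psmd12 read 9.32, 9.47 and 9.95 in wildtype and 9.37, 9.55 and 8.54 in knockout, overlapping groups with a difference of -0.43 (SE 0.46), or -0.12 without knockout replicate 3. Psmd14, the deubiquitinase of the lid, differed by 0.15 (SE 0.37). Psmd13 was singled out after its values were seen: it read 9.04, 8.59 and 4.94 in wildtype and 9.32, 7.95 and 5.25 in knockout. Its low values in the third replicate of each genotype were also seen in a second probe set, at 6.45 and 6.35 against 7.70 to 8.09 in the other arrays. Psmd3, Psmd6, Psmd7 and Psmd8 differed by between -0.26 and 0.51.

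The remaining Psmd genes, Psmd5, Psmd9 and Psmd10, encode chaperones that assemble the base and leave before the cap is complete. Psmd9 had the highest difference of all members, 1.05 (SE 0.77, adjusted p = 0.887 in limma), with 5.29, 5.85 and 7.16 in wildtype and 6.70, 8.45 and 6.29 in knockout. The groups overlapped, and without knockout replicate 2 the difference was 0.40. Psmd5 read 10.44, 8.80 and 9.46 in wildtype and 10.02, 8.73 and 9.19 in knockout, a difference of -0.26 (SE 0.59) that was 0.18 without wildtype replicate 1 and 0.04 without knockout replicate 2. Psmd10, on the X chromosome, read 8.34, 4.71 and 7.79 in wildtype and 8.46, 5.87 and 5.16 in knockout, a difference of -0.45 (SE 1.23). Without these 3 genes the cap median was still -0.26.

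Array by array, the medians of the core and the cap did not move together. Relative to the wildtype mean of each gene, the knockout arrays had core medians of -0.24 (replicate 1), -0.29 (replicate 2) and -0.10 (replicate 3), against -0.07 to 0.14 in the wildtype arrays. All 3 knockout medians lay below all 3 wildtype medians for the core, by little in replicate 3. They did so only narrowly after quantile normalization, with knockout replicate 3 at -0.08 and wildtype replicate 3 at -0.07. With arrays centred on their median they also did so narrowly, at -0.06 and -0.04 in the same 2 arrays. The separation of these medians was not tested. Neither ring did so by itself. In the alpha ring knockout replicate 1 was at 0.20, above the wildtype arrays at -0.04 to 0.07. Knockout replicates 2 and 3 were at -0.13 and -0.15 there, so the alpha ring had the same order of knockout arrays as the cap. In the beta ring knockout replicate 3 was at -0.09, above wildtype replicate 3 at -0.19. The cap median was 0.44, -0.07 and -0.81 in the knockout arrays and between -0.06 and 0.28 in wildtype. Knockout replicate 3 was the low array of the cap, where 16 of 20 genes lay below their wildtype mean (80.0%, against 40.0% of all genes and 52.4% of those above the median level), while knockout replicate 1 was above every wildtype array, but at -0.21 once the 3 assembly chaperones were left out. Without knockout replicate 3 the cap median turned to 0.12, with 9 of 20 genes below 0, and the core median was -0.48, with 10 of 14 below 0. Knockout replicate 3 also had the highest neutrophil markers, with all 11 above their wildtype mean by a median of 4.75, and stem cell markers at a median of -1.33; the part of either in the cap values was not tested. In knockout replicates 1 and 2 the neutrophil medians were 1.98 and 1.34 and the stem cell medians 0.62 and -0.22.

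**Figure D3:**
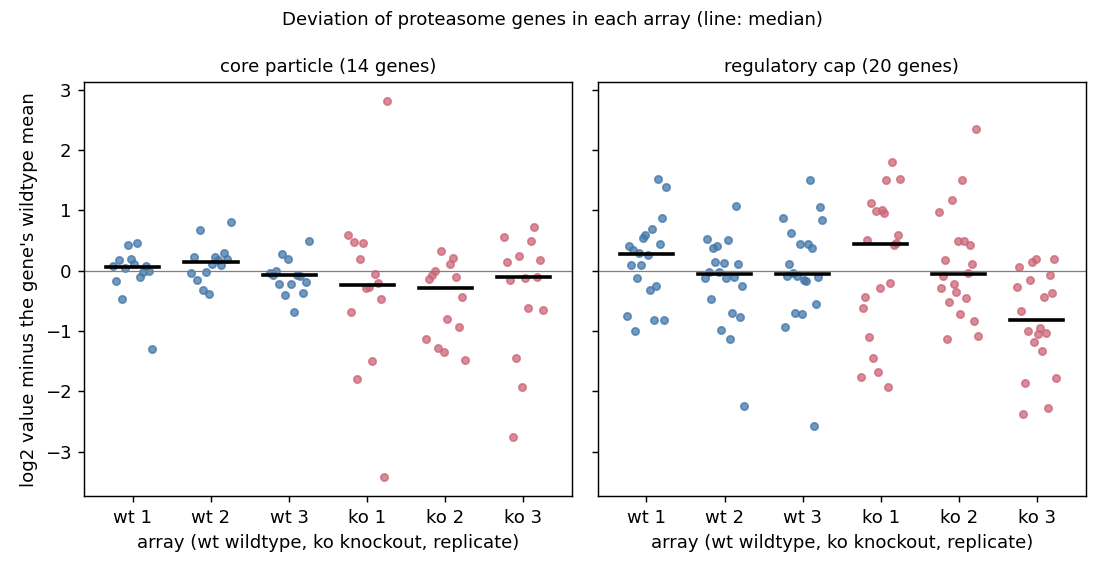
Log2 value minus the gene's own wildtype mean (vertical axis) for the 14 core and 20 cap genes in each array, with a line at the median. The cap median is -0.81 in knockout replicate 3 and 0.44 in knockout replicate 1, while the core medians of the knockout arrays lie between -0.29 and -0.10.

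Most core genes varied less over the wildtype arrays than over the knockout arrays. Their median SD was 0.25 over the wildtype arrays and 0.66 over the knockout arrays, and the SD was larger in knockout for 13 of 14 genes (92.9%), all but Psma6. Over all genes the medians were 0.37 and 0.46 and the SD was larger in knockout for 60.8%; over genes above the median level they were 0.62 and 0.77, and 60.9%. Psma1, with the smallest wildtype SD of the core (0.06), stayed between 8.86 and 8.97 in wildtype and read 9.50, 7.77 and 9.46 in knockout. Some core genes also varied in wildtype, with an SD of 1.14 for Psmb7, 0.61 for Psmb2 and 0.60 for Psma4. For the cap the SD was larger in knockout for 11 of 20 genes, with medians of 0.74 and 0.98. Of the 14 core genes, 7 lay under all wildtype arrays in knockout replicate 1 (50.0%, against 23.8% of all genes), 8 in knockout replicate 2 (57.1%, against 27.6%) and 3 in knockout replicate 3 (21.4%, against 21.1%). Of genes above the median level, 27.8%, 27.3% and 32.4% lay under all wildtype arrays in the same order. Above all wildtype arrays lay 4 core genes (28.6%, against 29.8% of all genes), 1 (7.14%, against 23.0%) and 3 (21.4%, against 40.8%). Of genes above the median level, 28.1%, 23.9% and 28.4% did so. Without knockout replicate 1 the count of core genes with the larger SD in knockout was 8 of 14, against 52.9% of all genes; the difference in spread was not tested.

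**Figure D4:**
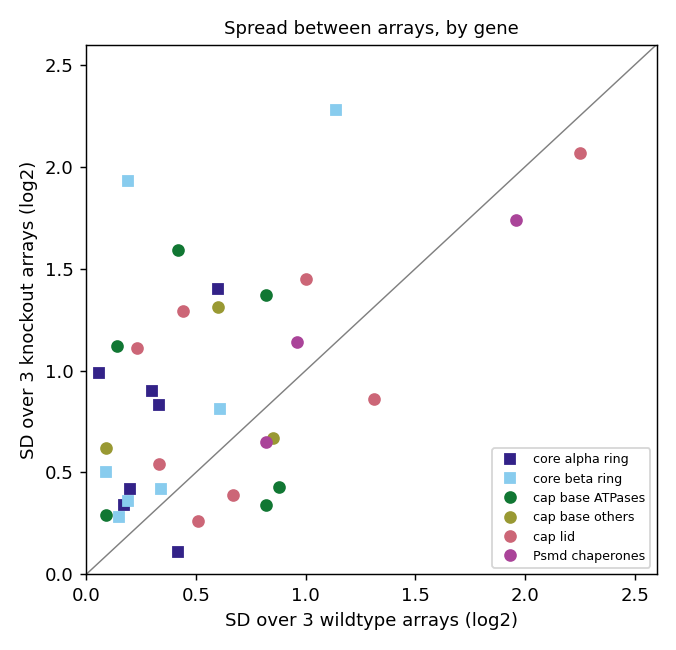
SD over the 3 knockout arrays against SD over the 3 wildtype arrays for each proteasome gene, both on the log2 scale, with a line of equality. Of the squares, which are core genes, 13 of 14 lie above the line, and of the circles, which are cap genes, 11 of 20 do.

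Over the 6 arrays, the genes most like the mean of the other members were Psmc4 (Pearson r = 0.89), Psma7 (0.86) and Psmc3 (0.84), each lowest in knockout replicate 3. Psmb3 and Psmb4 ran against it, at -0.90 and -0.88, and were highest in that array. The Psmb4 probe set used is of a type open to cross-hybridisation. Its second probe set was instead lowest in knockout replicate 3, at 10.39 against 10.40 to 10.93 in the other arrays. The second probe set of Psmb3 was again highest there, at 10.25. These correlations describe 6 arrays that share 1 normalization, and the members' mean level was 8.96 in knockout replicate 3 against 9.44 to 9.68 elsewhere.

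A second probe set above the median gene level was present for 13 members, with 17 such probe sets in all. The sign of the difference was the same as in the probe set used for 11 and opposite for 6. Of the 34 probe sets used, 3 are of a type whose probes may bind unrelated transcripts and 1 of a type shared by related ones.

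Other genes of the pathway also gave 0 calls in limma. Of the interferon-inducible subunits and activator 4 were measured and all 4 lay below 0, with a median of -0.48. Psmb9, which takes the place of Psmb6, read 10.79, 11.00 and 11.18 in wildtype and 9.67, 10.17 and 10.09 in knockout without overlap, a difference of -1.01 (SE 0.29, adjusted p = 0.887 in limma), while Psmb8 and Psmb10 differed by -0.49 and -0.20. The 5 chaperones of core assembly all lay below 0, with a median of -0.82. Psmg1, which helps to build the alpha ring, read 8.06, 8.65 and 9.17 in wildtype and 7.39, 6.15 and 6.29 in knockout without overlap, a difference of -2.01 (SE 0.59, adjusted p = 0.887 in limma). Pomp, the maturation factor of the core, differed by -0.46.

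The 5 measured ubiquitin receptors, deubiquitinases and adaptors of the cap had a median of -0.02. Sem1, a small lid subunit, read 11.67, 11.78 and 12.16 in wildtype and 11.55, 10.84 and 12.01 in knockout, overlapping groups with a difference of -0.40 (SE 0.32). The 6 regulators of proteasome gene transcription had -0.10, with Nfe2l1 at -0.79 (SE 0.80). Ngly1, the enzyme that removes glycans from the Nfe2l1 product, read 7.40, 5.56 and 7.13 in wildtype and 8.68, 8.26 and 7.27 in knockout, a difference of 1.37 (SE 0.70) with knockout replicate 3 among the wildtype arrays. The 8 ubiquitin pathway genes had -0.38. The shuttle Ubqln2 read 10.53, 9.20 and 8.01 in wildtype and 7.12, 6.85 and 8.53 in knockout, a difference of -1.75 (SE 0.82) between overlapping groups. The 5 other activators, tissue-specific subunits and inhibitor had a median of 0.05. Psme4, an activator of the core, read 7.44, 9.07 and 8.53 in wildtype and 8.86, 7.08 and 6.04 in knockout, a difference of -1.02 (SE 0.86) between overlapping groups. Of these 33 pathway genes, 31 lay above the median level. Groups without overlap were found for 2, Psmb9 and Psmg1, both lower (6.06%). This compares with 4.25% of all genes and 6.3% of genes above the median level. Listed genes without a probe set naming them alone, among them Psme2, Adrm1 and Ddi2, were not analysed here.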

How the data were processed

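Small amounts of RNA from 3 wildtype and 3 knockout sorted cell samples were amplified, labelled and read on the Affymetrix Mouse Genome 430 2.0 array, per the labels. The authors deposited 1 log2 value for each probe set in each array. Per the submitters' processing notes RMA, Affymetrix Expression Console and Partek were used, with no version named. RMA compresses differences of dim probe sets. The log2 scale was read from the values, and neither settings nor a test by the authors are stated in the labels.

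Of 45037 probe sets, 34945 name 1 gene in the platform annotation, 932 several and 9160 none; symbols were checked by Entrez number (34741 matched, 0 changed). The brightest of a gene's probe sets over 6 arrays stood for it, with no filter on level. Genotypes were compared over all 18193 genes with limma 3.58.1 in R 4.3.3, by lmFit and a trended eBayes. In simulated data the fit called only 6.2% of 2-fold and 27.6% of 4-fold changes, with 3.1 false calls per run. A gene that did not pass is thus not shown to be unchanged. Tables and figures used matplotlib 3.10.9, numpy 2.4.6 and pandas 2.3.3 under Python 3.11.15. The labels call the samples biological replicates without naming animals, so p-values measure the spread between these samples, and the number of arrays limits precision.

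The members and gene lists were chosen with earlier results of these data known. Values per array are given for members without overlap between groups, the 2 with the smallest unadjusted p in each structural list and the catalytic subunits, and for other pathway genes without overlap or with the smallest unadjusted p of a list; others were singled out after their values were seen. Alternatives were no trend, array weights, the mean of probe sets, a filter on level, quantile normalization, median centring, a replicate block and leaving out each array.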

Additional observations from a re-analysis of the deposited data

How the results depend on the processing

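No proteasome gene passed in limma under any of the 13 alternatives. Averaging each gene's probe sets let 1 gene of all pass, Zfp229 (adjusted p = 0.047 in limma), and the other settings 0. At an unadjusted p under 0.05 there were 528 of the 9096 genes above the median level and, under the settings that kept all 18193, between 689 and 1204. The core median stayed below 0, between -0.48 and -0.23 when 1 array was left out. The cap median ran from -0.43 to 0.12 and was above 0 only without knockout replicate 3; it was -0.12 with averaged probe sets and -0.04 without wildtype replicate 1. Members without overlap, all lower, numbered 2, against 4.25% of all genes lower. They numbered 3 with averaged probe sets (Psmb1 added), against 4.4%, and 1 after quantile normalization, against 4.72%. They numbered between 3 and 7 when 1 array was left out, where overlap is rarer by construction. With wildtype replicate 1 left out these were 2 lower and 1 higher of 34 members, against 8.07% and 10.9% of all genes. With knockout replicate 1 left out they were 6 lower and 1 higher, against 9.16% and 13.1% of all genes. With arrays centred on their median the median of all genes was 0.11, and 8 core and 13 cap genes lay below 0. Psmd11 turned to 0.11 with averaged probe sets. When 1 array was left out, Psmb7 ran from -1.07 to 1.08, Psmd5 from -0.64 to 0.18 and Psmd2 from -0.04 to 0.57; the cause was not tested. The count of core genes with the larger SD in knockout, examined after its value was seen, was 13 with averaged probe sets and under either scaling, and between 8 and 13 when 1 array was left out.

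The labels give the same replicate numbers to both genotypes. Same-numbered samples did not deviate together over all genes, with correlations of -0.024, -0.009 and -0.011. Differently numbered samples gave -0.023 to 0.035. A tie limited to few genes would not show in such correlations, so whether the numbers pair the samples stays undecided. With the replicate block 0 genes passed, the smallest adjusted p of a member was 0.889, and 838 genes had an unadjusted p under 0.05 against 880 without it.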
